A study of Mus musculus with 48 samples.

Results

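The levels of 10 genes classically read as T cell genes were followed in 4 populations of myeloid cells sorted from mouse lymph nodes. The genes are Cd3e, Cd3d, Cd3g, Cd4, Cd8b1, Tcf7, Lef1, Bcl11b, Foxp3 and Il7r. They were chosen on measured values, because they differ between groups of resident dendritic cells, and the choice had no threshold. All 10 were found by symbol among the 55487 genes of the count tables. The dendritic cell sorts were the migratory (mDC) and the resident (rDC) cells, and the macrophage sorts were those of the medullary sinus (MSM) and of the subcapsular sinus (SSM). Each was taken from a tumor-draining lymph node (TDLN) or from a node labelled only as lymph node (LN), after cisplatin, a DNA-crosslinking chemotherapy agent, or after PBS, its vehicle. The 16 groups are therefore TDLN cisplatin, TDLN PBS, LN cisplatin and LN PBS in each of 4 sorts, with 3 libraries a group and 48 in all. Mice are labelled wild type in every group, and the series' design text speaks of tumor-bearing mice without saying so of each LN group. Age, dose and time of treatment, and the tissue that the LN drained, are not given in the sources used here. No label says that the replicates of a group are separate animals; the p-values then measure only the spread between these libraries, which may be technical.

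Several libraries stood apart and bear on the results. In the macrophage sorts, MSM TDLN cisplatin 1, SSM TDLN cisplatin 3 and the second LN PBS library of both MSM and SSM each resembled the other macrophage label of the same node and treatment. Their expression correlated with libraries of their own label at 0.751 or less and with those of the other label at 0.99 or more, across genes. They are called the 4 crossed libraries below. For each tested comparison of macrophage groups, the number of the followed genes called is given with and without them. The text does not print the difference of every gene both ways. The ranges and medians of ratios, and the correlations, over the 24 macrophage libraries include the crossed libraries and are not given without them. Depth was 6456456 to 10434248 counts in the 24 macrophage libraries. Of the dendritic cell libraries, 18 held 2002713 to 3842097 counts, while the 3 mDC TDLN PBS and the 3 rDC LN PBS libraries held 10733509 to 15481059. The sort labels were checked against marker lists. A list of 9 migratory dendritic cell markers summed to 34550 to 43640 CPM (counts scaled to a common library size) in mDC and to 888 to 1515 CPM in rDC. A list of 12 macrophage markers summed to 1102 to 7301 CPM in 21 macrophage libraries. In the 3 MSM LN cisplatin libraries it summed to 320 to 352 CPM, below the 696 to 1112 CPM of rDC. Dendritic cell and macrophage CPM were scaled separately, so this comparison is approximate. MSM TDLN cisplatin 2 and 3, at 1102 and 1114 CPM, were near the highest rDC sum. Vsig4, on the macrophage list, was at 0 in all 24 macrophage libraries. In MSM TDLN PBS, 8 neutrophil markers summed to 7757 to 8042 CPM, above macrophage sums of 2874 to 2999 CPM. Neutrophil sums also exceeded macrophage sums in MSM TDLN cisplatin 2 and 3 and MSM LN PBS 1 and 3. They did not in MSM LN cisplatin and the SSM libraries that are not crossed.

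CD3 epsilon, delta and gamma, the products of Cd3e, Cd3d and Cd3g, are the invariant chains that carry the signal of the T cell receptor. The coreceptors CD4 and CD8 bind MHC molecules beside that receptor, and unlike the CD3 chains they are also found on some dendritic cells. Tcf7 and Lef1 encode the paired transcription factors TCF-1 and LEF-1, Bcl11b encodes a factor that fixes T lineage commitment in the thymus, and Foxp3 defines regulatory T cells. Il7r encodes the receptor chain for interleukin 7, a survival signal of naive and memory T cells that innate lymphoid cells use as well. In a bulk library of sorted cells, a change in the number of cells that carry such a transcript and a change in its amount per cell cannot be told apart.

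The 3 CD3 genes lie side by side on chromosome 9 of GRCm38, the build of the deposited tables. Cd3g lies at chr9:44969572-44980431 on the minus strand, Cd3d at chr9:44981786-44987339 on the plus strand and Cd3e at chr9:44998740-45009627 on the minus strand. The start sites of Cd3g and Cd3d face away from each other across 1355 bases, and 11401 bases separate the ends of Cd3d and Cd3e. Their promoter windows, 250 bases before to 50 bases after the start, are shown because these genes moved together in most of the comparisons below. Each is given 5′ to 3′ on the gene's own strand, from RefSeq on GRCm38.p6. Capitals mark the letters CTTTGA or CTTTGT, the core read by TCF and LEF factors, and AGGAAG, an ETS core, on either strand. The RUNX letters TGTGGT or TGCGGT were searched as well.
Cd3g promoter (chr9:44980382-44980681, minus strand): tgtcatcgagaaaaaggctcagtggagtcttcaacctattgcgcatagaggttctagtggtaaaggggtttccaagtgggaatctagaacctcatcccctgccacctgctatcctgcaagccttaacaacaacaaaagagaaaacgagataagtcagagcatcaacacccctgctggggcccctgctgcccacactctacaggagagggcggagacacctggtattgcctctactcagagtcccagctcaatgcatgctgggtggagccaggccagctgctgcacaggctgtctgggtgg
Cd3d promoter (chr9:44981536-44981835, plus strand): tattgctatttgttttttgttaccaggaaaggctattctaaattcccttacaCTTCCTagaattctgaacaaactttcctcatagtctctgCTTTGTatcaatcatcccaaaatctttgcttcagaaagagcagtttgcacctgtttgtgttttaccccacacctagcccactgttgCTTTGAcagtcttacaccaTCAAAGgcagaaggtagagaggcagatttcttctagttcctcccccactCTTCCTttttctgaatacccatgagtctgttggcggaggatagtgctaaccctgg
Cd3e promoter (chr9:45009562-45009861, minus strand): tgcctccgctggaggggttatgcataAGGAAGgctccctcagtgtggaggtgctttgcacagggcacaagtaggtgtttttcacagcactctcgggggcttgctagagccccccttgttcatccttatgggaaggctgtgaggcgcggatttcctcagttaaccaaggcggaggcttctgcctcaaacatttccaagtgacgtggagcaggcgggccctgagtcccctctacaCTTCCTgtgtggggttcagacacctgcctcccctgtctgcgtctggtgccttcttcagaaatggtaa
The Cd3d window held the TCF and LEF letters 3 times, starting 159, 73 and 54 bases before the start site, and the ETS letters 198 and 5 bases before it. The Cd3e window held the ETS letters 224 and 17 bases before its start and none of the others, and the Cd3g window held none of the 3 kinds. Of 32851 promoter windows of this length, 31.2% held a TCF and LEF match, 35.4% an ETS match and 22.4% a RUNX match. A match is a description of letters and not a binding site. Of the 10 genes, 8 had a RefSeq promoter entry, and Cd4 and Cd8b1 are named only.

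In resident dendritic cells, the values that chose the genes, the CD3 genes were low in LN PBS and higher in LN cisplatin and in TDLN PBS, and lower again in TDLN cisplatin. These values are a description and carry no test. Levels are in CPM scaled over the 24 libraries of the dendritic cell table. Cd3e was at 10.7, 9.78 and 9.96 CPM in TDLN cisplatin, against 30.9, 39.8 and 37.6 CPM in TDLN PBS. In the LN it was at 30.6, 31.6 and 29.1 CPM after cisplatin, against 5.70, 2.74 and 4.65 CPM after PBS. The cisplatin and PBS libraries did not overlap in either node, and the order of treatments was opposite in the 2 nodes. The fitted log2 difference of cisplatin over PBS was -1.82 ± 0.21 (SE) in the TDLN and 2.83 ± 0.19 in the LN. Cd3d was at 3.88, 4.12 and 3.32 CPM in TDLN cisplatin, against 20.6, 17.1 and 18.5 CPM in TDLN PBS, a fitted log2 difference of -2.31 ± 0.25. In the LN it was at 12.9, 15.1 and 15.9 CPM after cisplatin, against 2.28, 1.42 and 2.71 CPM after PBS, a difference of 2.80 ± 0.22. Cd3g was at 6.27, 7.98 and 3.02 CPM in TDLN cisplatin, against 22.7, 19.1 and 21.4 CPM in TDLN PBS. It was at 22.6, 18.8 and 14.7 CPM in LN cisplatin, against 3.04, 1.42 and 3.62 CPM in LN PBS. All 3 chains thus showed the same order of groups, TDLN PBS and LN cisplatin above TDLN cisplatin and LN PBS. For Cd3e and Cd3g the libraries of TDLN PBS and LN cisplatin overlapped, and for Cd3d they did not. The lowest of these values rest on few reads: Cd3d had 11 to 16 counts in each rDC TDLN cisplatin library. The rDC LN PBS group, which held the lowest levels, was also the deeply sequenced one, at 10733509 to 14869939 counts against 2721840 to 3842097 in the other rDC libraries, and the part of depth in its level was not tested.

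**Figure D1:**
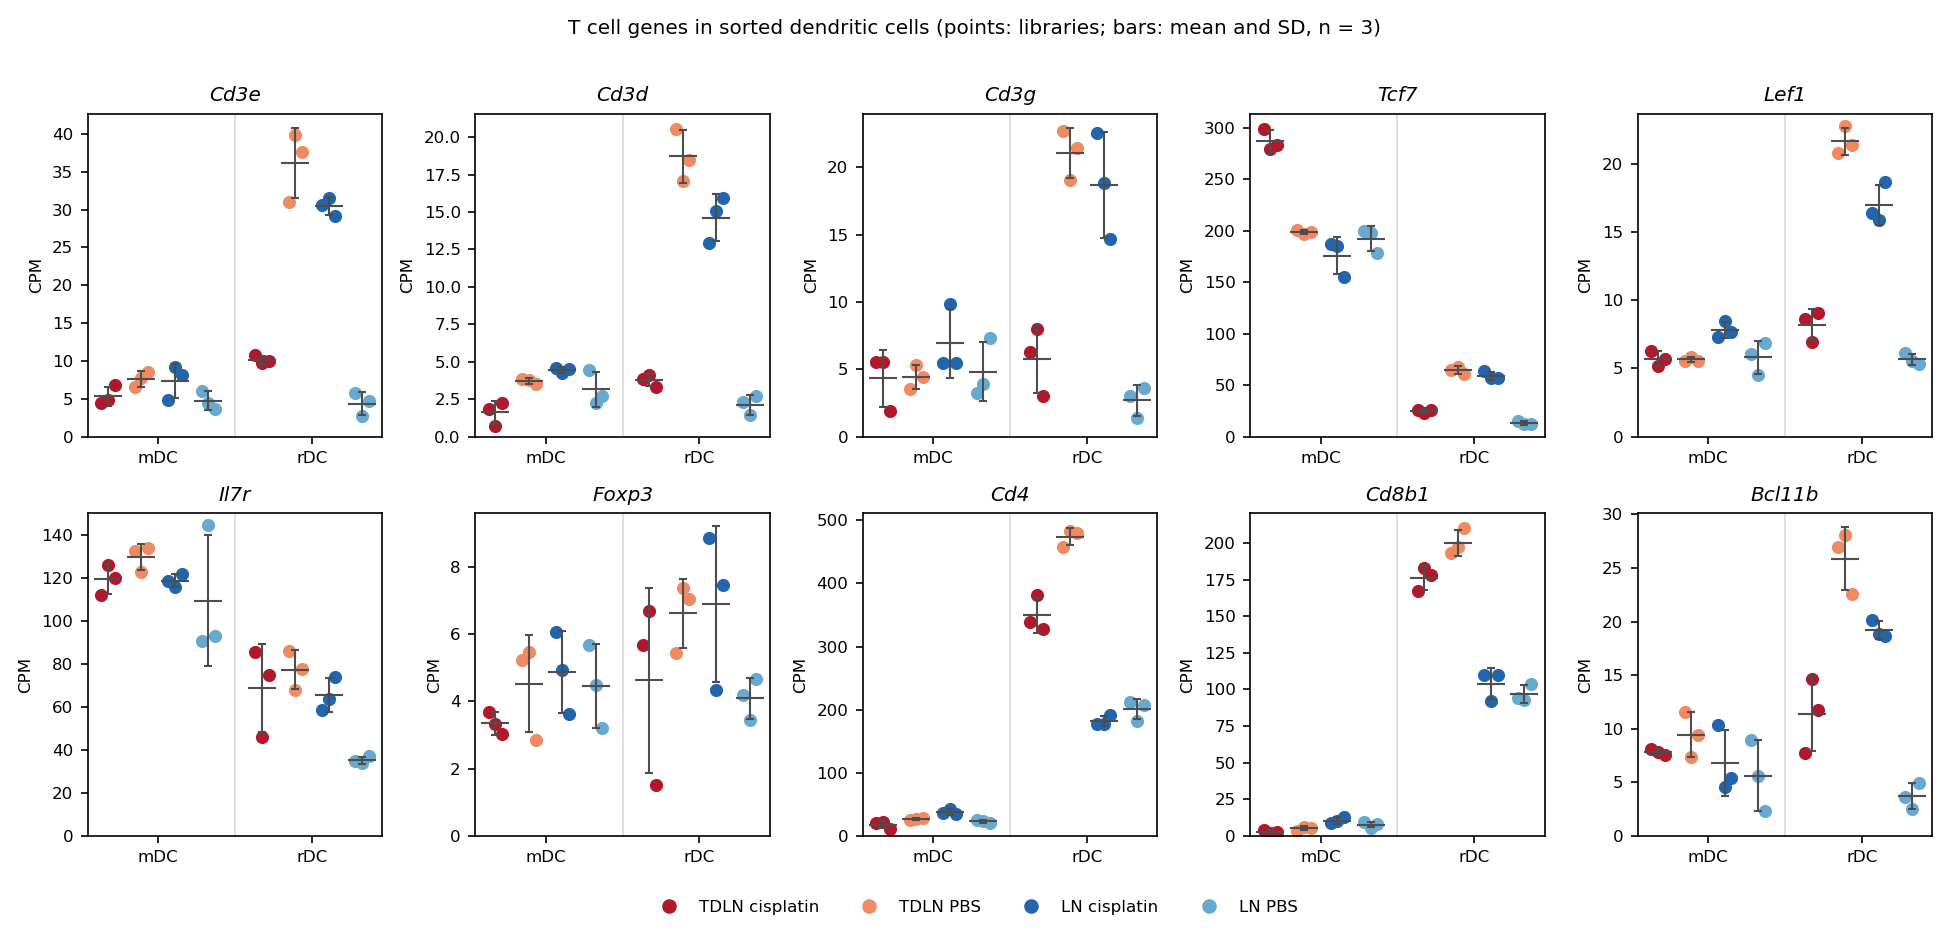
CPM of the 10 genes in each dendritic cell library, by sort (mDC, then rDC) and by node and treatment; bars give the mean and SD of 3 libraries, and each panel has its own axis from 0. The CD3 genes, Lef1 and Bcl11b stand high in rDC TDLN PBS and rDC LN cisplatin, Tcf7 and Il7r stand higher in mDC, and Cd4 and Cd8b1 stand higher in rDC TDLN than in rDC LN.

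Among the transcription factors, Tcf7, Lef1 and Bcl11b followed the CD3 genes in rDC and Foxp3 did not. Tcf7 was at 26.0, 22.6 and 25.7 CPM in rDC TDLN cisplatin, against 65.0, 68.0 and 60.8 CPM in rDC TDLN PBS. In the LN it was at 63.7, 57.3 and 56.5 CPM after cisplatin, against 15.4, 12 and 12.4 CPM after PBS, and the treatments did not overlap in either node. Lef1 was at 8.65, 6.95 and 9.06 CPM in TDLN cisplatin, against 20.8, 22.8 and 21.4 CPM in TDLN PBS. It was at 16.4, 15.9 and 18.7 CPM in LN cisplatin, against 6.14, 5.57 and 5.36 CPM in LN PBS. Its fitted log2 differences of cisplatin over PBS, -1.40 ± 0.17 in the TDLN and 1.64 ± 0.15 in the LN, were smaller than those of Cd3e. Bcl11b was at 7.76, 14.7 and 11.8 CPM in TDLN cisplatin, against 26.9, 28.1 and 22.6 CPM in TDLN PBS. It was at 20.2, 18.8 and 18.7 CPM in LN cisplatin, against 3.67, 2.48 and 4.91 CPM in LN PBS. The Bcl11b differences were -1.17 ± 0.23 in the TDLN and 2.41 ± 0.23 in the LN. Foxp3 was at 5.67, 6.69 and 1.51 CPM in TDLN cisplatin, against 5.43, 7.37 and 7.04 CPM in TDLN PBS. It was at 8.87, 4.34 and 7.47 CPM in LN cisplatin, against 4.18, 3.45 and 4.65 CPM in LN PBS. The treatments overlapped in both nodes for Foxp3, whose lowest library held 5 counts.

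The coreceptor genes had another order in rDC, one that followed the node. Cd4 was at 338, 381 and 328 CPM in TDLN cisplatin, 458, 483 and 480.5 CPM in TDLN PBS, 177, 178 and 191 CPM in LN cisplatin and 213, 183 and 208 CPM in LN PBS. Every TDLN library was above every LN library, with a fitted log2 difference of TDLN over LN of 0.93 ± 0.09 with cisplatin and 1.29 ± 0.08 with PBS. Cd8b1, the CD8 beta chain, was at 167, 183 and 178 CPM in TDLN cisplatin, 193, 197 and 209.9 CPM in TDLN PBS, 109.9, 92.0 and 110.0 CPM in LN cisplatin and 93.9, 92.5 and 104 CPM in LN PBS. Its TDLN over LN differences were 0.75 ± 0.09 with cisplatin and 1.10 ± 0.09 with PBS, where Cd3e had -1.59 ± 0.21 and 3.06 ± 0.19. The treatments overlapped in the LN for both coreceptor genes, where the CD3 genes differed most. In the TDLN both coreceptor genes were lower after cisplatin without overlap, the direction of the CD3 genes there. Il7r was at 85.4, 45.8 and 74.6 CPM in TDLN cisplatin, against 86.0, 68.0 and 77.8 CPM in TDLN PBS. It was at 58.6, 63.7 and 73.9 CPM in LN cisplatin, against 34.6, 33.7 and 37.1 CPM in LN PBS. Its LN PBS libraries were the lowest of the 12 rDC libraries, and the other 3 groups overlapped.

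Markers of other cells were summed in the same rDC groups, and some lists had the order of the CD3 genes in the LN. The summed level of 10 B cell markers was 2022 to 2201 CPM in TDLN cisplatin, 2214 to 2328 CPM in TDLN PBS, 3721 to 3996 CPM in LN cisplatin and 3606 to 4147 CPM in LN PBS. These sums were higher in the LN under both treatments, unlike the CD3 genes. The 7 plasmacytoid dendritic cell markers summed to 3663 to 4360 CPM in TDLN cisplatin and 3835 to 4052 CPM in TDLN PBS, above 2368 to 2494 CPM in LN cisplatin and 2180 to 2383 CPM in LN PBS. Their order by node was that of Cd4 and Cd8b1. The 9 NK cell markers summed to 70.8 to 88.6, 69.6 to 82.7, 179.5 to 197 and 46.2 to 55.6 CPM in the same 4 groups, with no marker at 0 throughout a group. The 6 innate lymphoid cell markers summed to 21.1 to 25.7 CPM in TDLN cisplatin and 21.4 to 28.1 CPM in TDLN PBS, and to 36.8 to 40.2 CPM in LN cisplatin and 11.1 to 14.2 CPM in LN PBS, with Il22 at 0 throughout TDLN cisplatin. Both of these lists were higher after cisplatin in the LN, like the CD3 genes, and overlapped between treatments in the TDLN, unlike them. The part of these cells in the T cell gene levels was not tested. Of 45 other T cell genes, fixed by role, 43 passed the filter on low counts in rDC. In the TDLN with cisplatin, 7 had a fitted difference above 0 and 36 below, with a median of -0.63 on the log2 scale against 0.00 over all genes. In the LN 40 were above 0 and 3 below, with a median of 1.8 against 0.01. The 20 receptor and signalling genes had medians of -1.05 in the TDLN and 2.51 in the LN. Of 8 other transcription factors that passed, 4 were above 0 and 4 below in the TDLN, with a median of 0.01, while all 8 were above 0 in the LN, with a median of 0.81. For TDLN over LN with PBS these factors were again 4 and 4, with a median of 0.05, where the receptor and signalling genes had 2.39. The same contrasts chose the 10 genes, so these counts describe the libraries and are no support.

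In migratory dendritic cells the CD3 genes were low in every group, and Tcf7 and Cd4 were the genes that changed with cisplatin. This sort did not enter the choice of genes, so its comparisons were tested with edgeR's quasi-likelihood test and Benjamini-Hochberg adjustment over all genes that passed the filter. Fold changes come from a fit scaled over the 12 mDC libraries. Relative to that fit, the printed CPM shift the median gene by -0.125 with cisplatin in the TDLN and by 0.154 for TDLN over LN with PBS, on the log2 scale. Cd3e lay between 3.66 and 9.17 CPM over the 12 libraries, Cd3d between 0.742 and 4.55 CPM, Cd3g between 1.89 and 9.88 CPM, Lef1 between 4.50 and 8.47 CPM, Bcl11b between 2.29 and 11.5 CPM and Foxp3 between 2.87 and 6.07 CPM. These levels rest on as few as 2 counts a library for Cd3d and 5 for Cd3g and Bcl11b, and small differences were not detectable at this depth. Tcf7 was of another order, at 299, 279.8 and 283 CPM in mDC TDLN cisplatin, 201, 197 and 199 CPM in mDC TDLN PBS, 187, 185 and 155 CPM in mDC LN cisplatin and 200.2, 198 and 178 CPM in mDC LN PBS. The TDLN cisplatin libraries stood above all others, and the LN groups overlapped.

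With cisplatin in the TDLN, 1 of the 10 genes rose in mDC and 1 fell, a share to be read against 27.3% of all genes called in that comparison. Tcf7 rose by 0.66 ± 0.06 on the log2 scale (adjusted p = 9.1e-08), and no leave-out of a library changed this call. With no filter on low counts the Tcf7 difference was 0.38 and that of Cd4 -0.72, with the median of the same genes shifted to -0.29. Cd4 fell to 20.7, 21.5 and 11.7 CPM in TDLN cisplatin, against 25.7, 26.5 and 28.1 CPM in TDLN PBS, a log2 difference of -0.45 ± 0.16 (adjusted p = 0.045). The libraries did not overlap, but the call rested on mDC TDLN cisplatin 3, the lowest library: without it the difference was -0.22 (adjusted p = 0.31). The Cd4 call was also lost without any single TDLN PBS library, at adjusted p = 0.052 without the first, 0.077 without the second and 0.10 without the third. With the deep libraries thinned to near the depth of the rest, the difference was -0.34 (adjusted p = 0.24). Cd3d was at 1.85, 0.742 and 2.26 CPM after cisplatin, against 3.88, 3.81 and 3.49 CPM after PBS, without overlap and at adjusted p = 0.054. Il7r, at 112, 126 and 120.0 CPM against 132, 123 and 134 CPM, had a difference of 0.00 ± 0.10 (adjusted p = 0.98).

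With cisplatin in the LN, 1 of the 10 genes rose in mDC and none fell, against 11.0% of all genes called. Cd4 was at 36.7, 42.7 and 34.4 CPM in LN cisplatin, against 25.9, 23.0 and 20.6 CPM in LN PBS, a log2 difference of 0.67 ± 0.18 (adjusted p = 0.013). The libraries did not overlap, and the call was lost without LN cisplatin 2, at 0.58 (adjusted p = 0.072), and without LN PBS 3, at 0.59 (adjusted p = 0.079). Il7r was called without LN PBS 2, at 0.32 (adjusted p = 0.019), against 0.11 (adjusted p = 0.62) with all libraries. Tcf7 had a difference of -0.16 ± 0.08 (adjusted p = 0.20). Cd3e was at 4.85, 9.17 and 8.15 CPM after cisplatin, against 6.08, 4.50 and 3.66 CPM after PBS, with overlap and a difference of 0.55 ± 0.34 (adjusted p = 0.34). The cisplatin difference in the TDLN minus that in the LN was tested as an interaction, in which 15.6% of all genes were called. It was 0.81 ± 0.10 for Tcf7 (adjusted p = 4.3e-06) and -1.12 ± 0.24 for Cd4 (adjusted p = 0.0025). Tcf7 therefore differed between nodes toward the TDLN and Cd4 toward the LN. Among the mDC groups in this test, TDLN PBS was the deeply sequenced one. With no filter on low counts the Tcf7 value was 0.49, with the median of the same genes at -0.34. For Cd3e the interaction was -0.94 ± 0.43 (adjusted p = 0.15) and for Cd8b1 -1.05 ± 0.46 (adjusted p = 0.13).

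Between nodes, none of the 10 genes was called in mDC with PBS, where 29.1% of all genes were called. The smallest adjusted p among them was 0.066, for Cd8b1, at 3.67, 6.35 and 5.73 CPM in TDLN PBS against 9.32, 5.62 and 8.23 CPM in LN PBS. Cd8b1 was the 1 gene of the 10 with an unadjusted p under 0.05, and DESeq2 called 0. Leaving out LN PBS 2 alone gave 2 calls, Cd8b1 at -0.88 (adjusted p = 0.037) and Il7r at 0.34 (adjusted p = 0.0023), while the other 5 leave-outs gave 0. With no filter on low counts edgeR called 5 of the 10 higher in TDLN PBS, but the scaling then put the median of the same genes at 0.36 on the log2 scale, against 0.01 with the filter. With cisplatin, 1 gene was higher in the TDLN and 3 were lower, against 14.8% of all genes called. Tcf7 was higher by 0.71 ± 0.07 (adjusted p = 1.2e-07) and Cd4 lower, with a log2 difference of -1.07 ± 0.18 (adjusted p = 1.0e-04). Cd8b1 was at 4.06, 2.23 and 2.64 CPM in TDLN cisplatin, against 8.49, 9.88 and 13.1 CPM in LN cisplatin, a difference of -1.78 ± 0.35 (adjusted p = 9.3e-04) without overlap. Cd3d was at 1.85, 0.742 and 2.26 CPM in TDLN cisplatin, against 4.55, 4.23 and 4.53 CPM in LN cisplatin, a difference of -1.44 ± 0.45 (adjusted p = 0.031). The Cd3d call was lost in 5 of the 6 fits that leave out 1 library, at adjusted p of 0.064 without TDLN cisplatin 1, 0.15 without TDLN cisplatin 2, 0.085 without LN cisplatin 1, 0.065 without LN cisplatin 2 and 0.064 without LN cisplatin 3.

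Other T cell genes were called in mDC about as often as all genes. Of the 45 listed, 37 passed the filter, and 7 rose and 2 fell with cisplatin in the TDLN, or 24.3% against 27.3% of all genes, with a median of 0.18 on the log2 scale against -0.01 over all genes. Tnfrsf4, which encodes the receptor OX40, was at 289 ± 22.6 CPM in TDLN cisplatin and 175 ± 1.21 CPM in TDLN PBS (SD, n = 3 each), a difference of 0.85 ± 0.06 (edgeR adjusted p = 8.3e-10). Il2ra, the interleukin 2 receptor alpha chain, was at 84.6 ± 5.38 CPM in TDLN cisplatin and 53.5 ± 4.76 CPM in TDLN PBS, a difference of 0.78 ± 0.09 (edgeR adjusted p = 7.5e-07). Trbc1, a T cell receptor constant segment, fell to 5.72 ± 4.31 CPM in TDLN cisplatin, against 12 ± 1.28 CPM in TDLN PBS, with a difference of -0.95 ± 0.31 (edgeR adjusted p = 0.025). In the LN 5 of the 37 rose with cisplatin and none fell, or 13.5% against 11.0% of all genes, and none of the 16 receptor and signalling genes tested was among them. Ets1, a transcription factor, rose to 83.4 ± 7.87 CPM in LN cisplatin, against 41.2 ± 3.76 CPM in LN PBS, a difference of 0.98 ± 0.11 (edgeR adjusted p = 1.2e-06). B cell markers moved in the same libraries: 9 of 10 rose with cisplatin in each node. Their summed level was 512 to 529 CPM in TDLN cisplatin against 330.1 to 361 CPM in TDLN PBS, and 385 to 426 CPM in LN cisplatin against 181 to 201 CPM in LN PBS. The part of B cells in the Ets1 and Cd4 values was not tested.

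Set beside each other per transcript length, the genes had different proportions in the 4 sorts. The authors' deposited TPM, which are scaled for transcript length, were used for this comparison, because CPM are not. The tables of dendritic cells and macrophages were normalised separately, so ratios within a library are given rather than levels across tables. Tcf7 over Cd3e was 10.3 to 43.8 in mDC, with a median of 14.8 over 12 libraries. It was 0.835 to 2.97 in rDC, with a median of 1.02, and 0.203 to 0.609 over the 24 macrophage libraries, with a median of 0.320. The mDC range lay wholly above those of the other sorts. Tcf7 over Lef1, the paired factors, was 10.6 to 63.9 in mDC and 2.05 to 4.38 in rDC, without overlap, but 2.91 to 204 in macrophages, a range that overlapped both. Il7r over Cd3e had medians of 7.83 in mDC, 1.48 in rDC and 0.601 in macrophages. The coreceptors differed in the other direction. Cd4 over Cd3e had medians of 1.86 in mDC, 8.37 in rDC and 0.139 in macrophages, and Cd8b1 over Cd3e had medians of 0.984, 8.24 and 0.0637. Cd8b1 over Cd8a, the 2 chains of CD8, was 0.052 to 0.194 in mDC, below the 0.758 to 1.47 of rDC and the 0.367 to 3.0 of macrophages. Within rDC, Tcf7 over Cd3e stayed between 0.835 and 1.31 in 11 of the 12 libraries, over which the TPM of Cd3e ranged 7.03-fold. The remaining library, rDC LN PBS 2, was at 2.97 and held 31 counts of Cd3e. Cd4 over Cd3e in rDC was 10.8 to 11.6 in TDLN cisplatin and 5.14 to 5.94 in TDLN PBS, and 2.16 to 2.68 in LN cisplatin and 14.2 to 35 in LN PBS. Cd4 did not keep a fixed proportion to Cd3e across rDC groups.

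**Figure D2:**
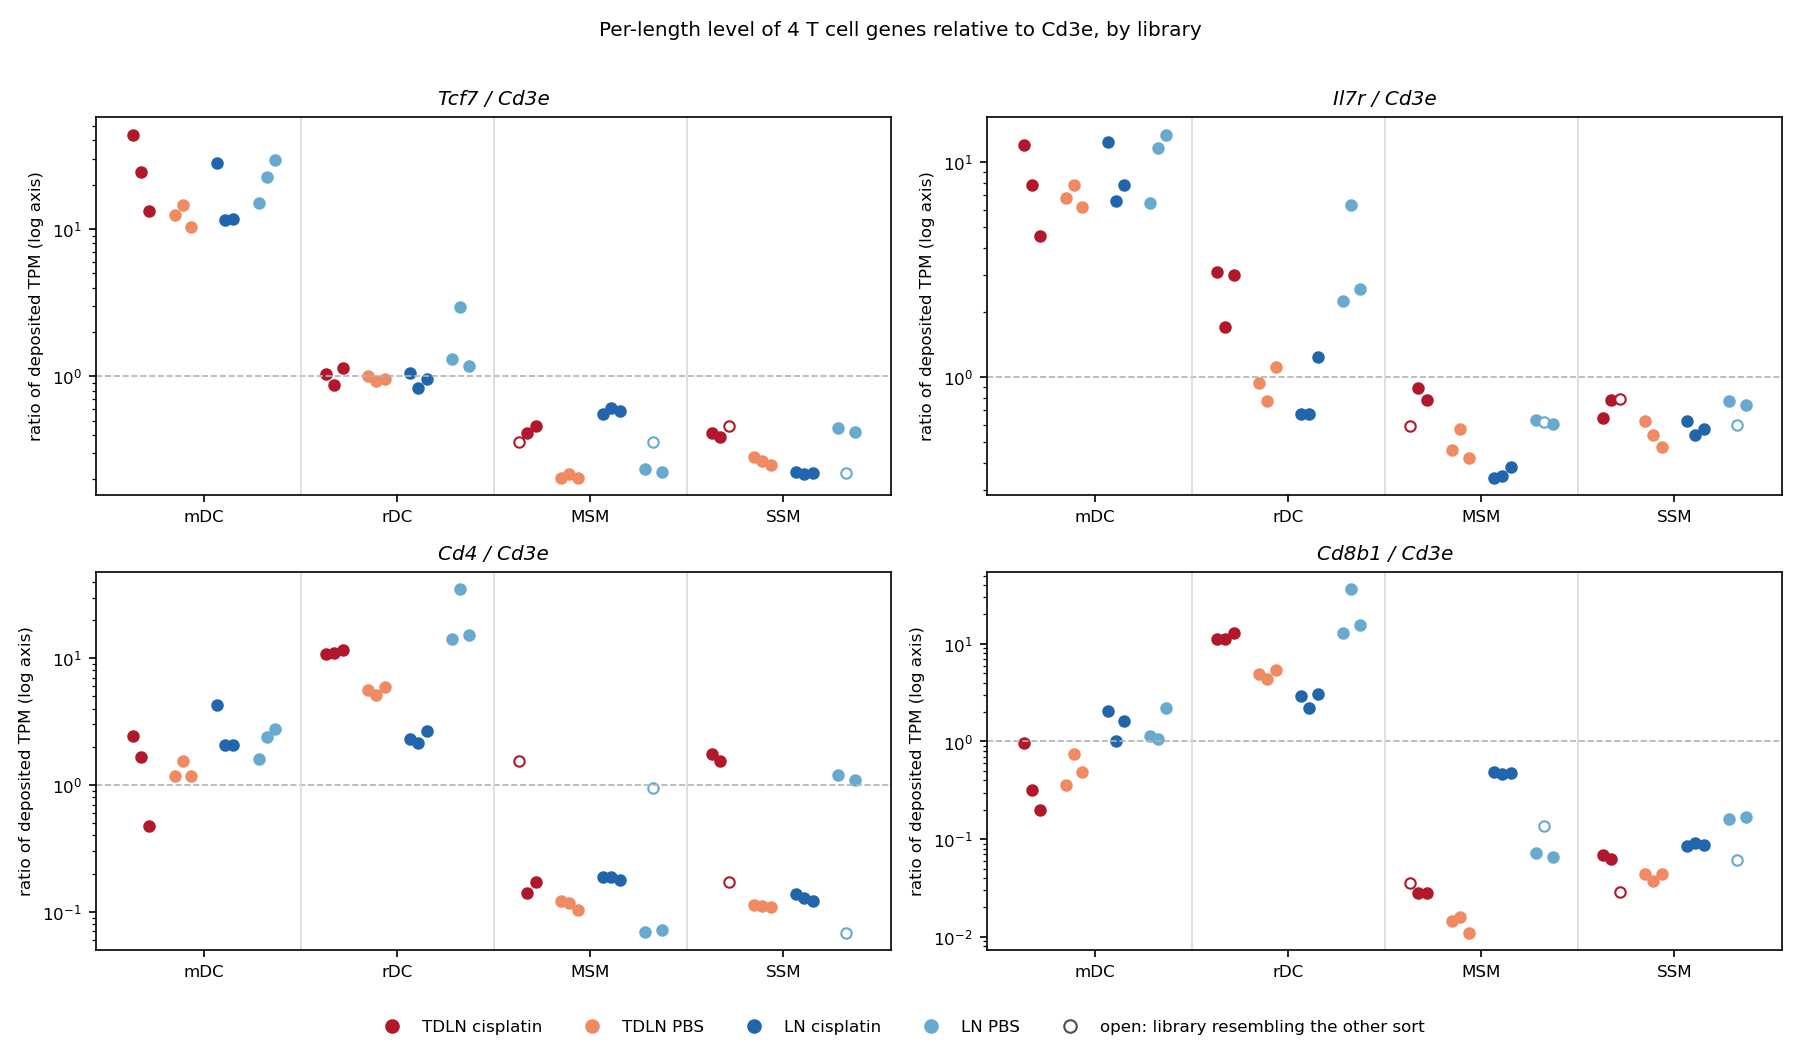
Ratio of the deposited TPM of Tcf7, Il7r, Cd4 and Cd8b1 to that of Cd3e in each library (log axis; dashed line at equal levels), by sort, with 3 libraries a group and the 4 crossed libraries open. Tcf7 over Cd3e lies at 10.3 or more in mDC and at 0.609 or less in macrophages, and Cd4 over Cd3e is near or above 1 in the SSM TDLN cisplatin and LN PBS libraries that are not crossed and in the crossed MSM libraries of the same node and treatment.

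mDC and rDC of the same node and treatment were compared as a description, since rDC values chose the genes. Tcf7 was higher in mDC in all 4 conditions, with fitted log2 differences of mDC over rDC of 3.54 ± 0.10 in TDLN cisplatin, 1.62 ± 0.09 in TDLN PBS, 1.57 ± 0.09 in LN cisplatin and 3.84 ± 0.10 in LN PBS. Il7r was higher in mDC by 0.74 to 1.62. Cd8b1 was lower in mDC, with differences of -5.87 ± 0.19, -5.22 ± 0.13, -3.34 ± 0.16 and -3.61 ± 0.17 in the same order of conditions. Cd4 was lower as well, with differences of -4.28 to -2.25. Cd3e was lower in mDC in TDLN cisplatin, at -0.92 ± 0.29, in TDLN PBS, at -2.23 ± 0.19, and in LN cisplatin, at -2.07 ± 0.23. In LN PBS its mDC and rDC libraries overlapped, and the difference was 0.11 ± 0.31.

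In the macrophage sorts the levels of the CD3 genes, Tcf7, Il7r, Bcl11b and Cd4 separated the crossed libraries from the rest of their groups, while those of Lef1 and Foxp3 did not in every group. CPM here are scaled over the 24 macrophage libraries. Cd3e was at 67.2, 474 and 491 CPM in MSM TDLN cisplatin, 761, 742 and 749.7 CPM in MSM TDLN PBS, 334, 348 and 336 CPM in MSM LN cisplatin and 447, 116 and 487 CPM in MSM LN PBS. It was at 59.8, 66.0 and 476 CPM in SSM TDLN cisplatin, 566, 609 and 613 CPM in SSM TDLN PBS, 325, 336 and 340.0 CPM in SSM LN cisplatin and 103, 459.8 and 97.5 CPM in SSM LN PBS. The crossed library was the outlying one in each of the 4 groups that hold one, and its value lay close to the other macrophage label. Cd3d ranged from 31.2 to 268 CPM and Cd3g from 54.8 to 457 CPM, and both had their highest library in MSM TDLN PBS. Without the crossed libraries, Cd3e averaged 62.9 ± 4.40 CPM in SSM TDLN cisplatin and 100.4 ± 4.12 CPM in SSM LN PBS (SD, n = 2 each), and each of the other groups averaged 333.5 CPM or more.

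**Figure D3:**
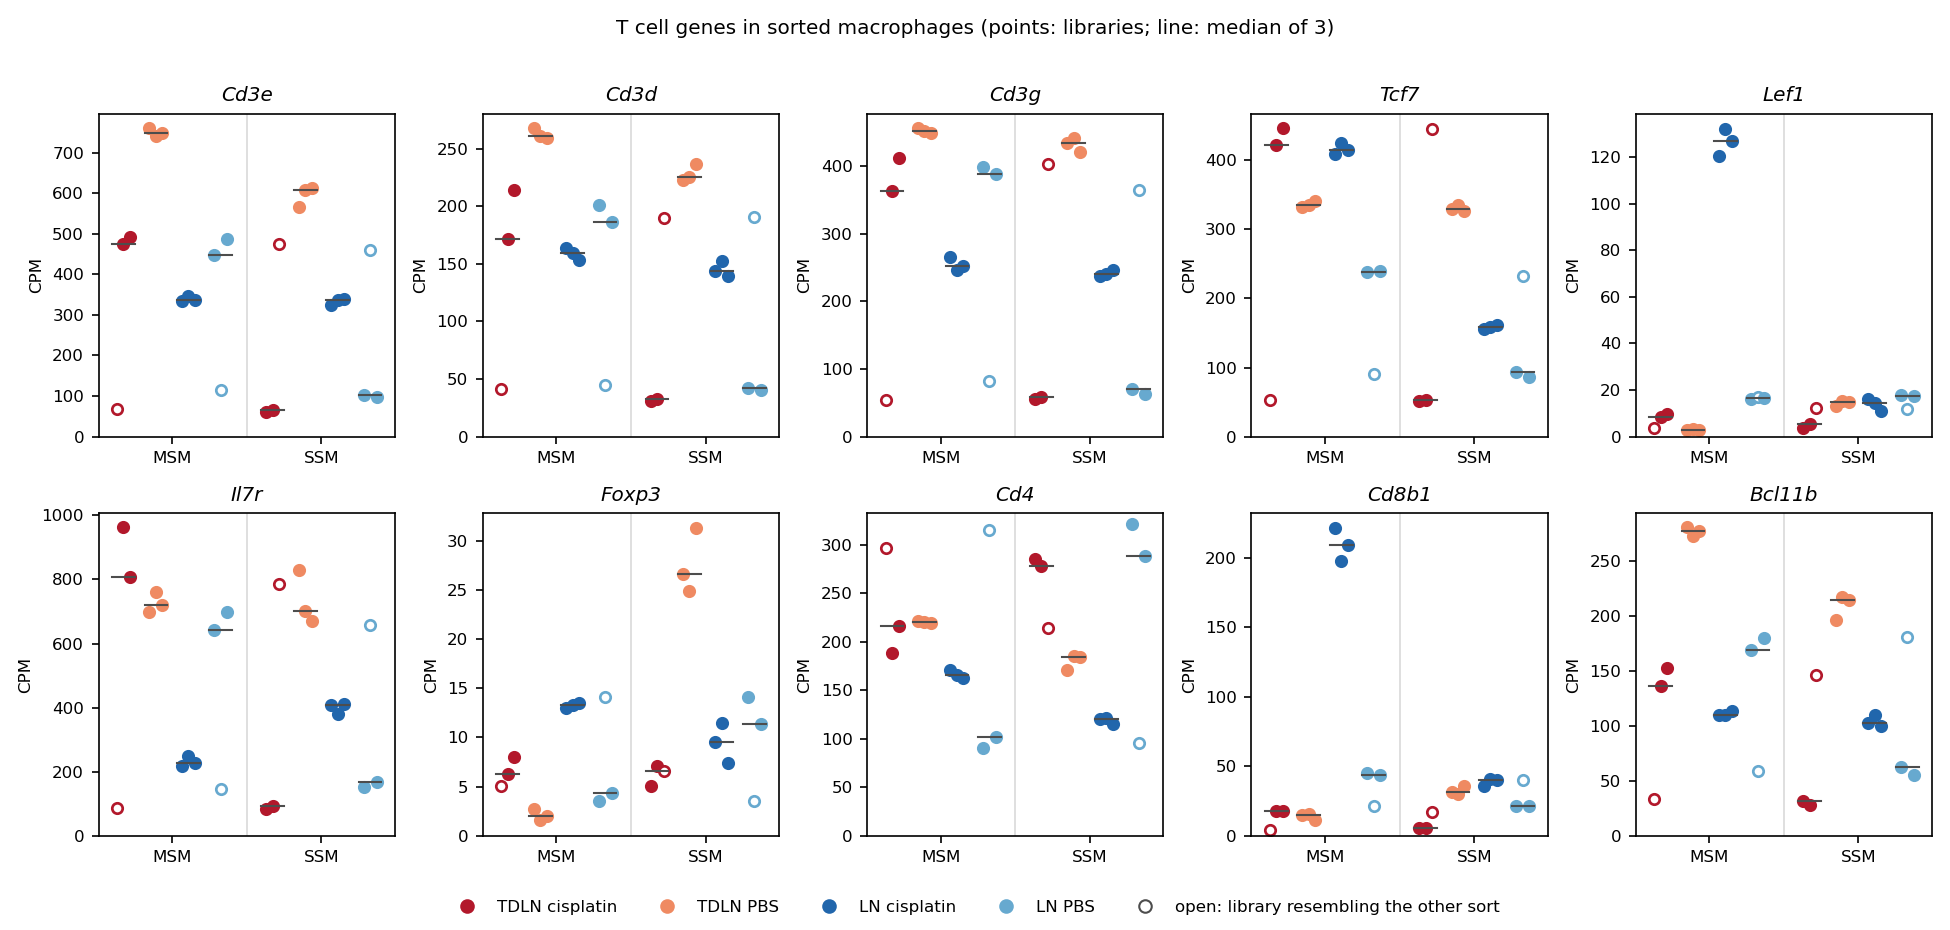
CPM of the 10 genes in each macrophage library, by sort (MSM, then SSM) and by node and treatment; lines give the median of 3 libraries, and open points are the 4 crossed libraries. The open points of Cd3e at 67.2 and 116 CPM in MSM and at 476 and 459.8 CPM in SSM lie apart from the filled points of their groups, and Lef1 and Cd8b1 stand out in MSM LN cisplatin.

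The genes outside the CD3 complex differed in how they followed it. Il7r was at 86.3, 962 and 806 CPM in MSM TDLN cisplatin and 699, 761 and 720.0 CPM in MSM TDLN PBS, and at 218, 250.5 and 227 CPM in MSM LN cisplatin and 643, 147 and 698 CPM in MSM LN PBS. In SSM it was at 82.7, 92.5 and 784 CPM in TDLN cisplatin, 830.5, 700.1 and 669 CPM in TDLN PBS, 409.5, 381 and 412 CPM in LN cisplatin and 152, 659 and 168 CPM in LN PBS. Tcf7 was at 53.7, 422 and 447 CPM in MSM TDLN cisplatin, 332, 335 and 341 CPM in MSM TDLN PBS, 409, 424 and 415 CPM in MSM LN cisplatin and 238, 90.6 and 239 CPM in MSM LN PBS. In SSM the Tcf7 libraries that are not crossed lay at 52.2 and 53.2 CPM in TDLN cisplatin, 327 to 335 CPM in TDLN PBS, 155 to 161 CPM in LN cisplatin and 86.4 and 93.1 CPM in LN PBS. Both genes thus shared the low levels of Cd3e in SSM TDLN cisplatin and SSM LN PBS. Bcl11b did so as well, with 28.2 and 31.4 CPM in SSM TDLN cisplatin and 55.8 and 62.5 CPM in SSM LN PBS against 110.2 to 281 CPM over the 10 MSM libraries that are not crossed.

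Lef1, Foxp3, Cd8b1 and Cd4 had patterns of their own in the macrophage sorts. Lef1 was at 120.4, 132 and 127 CPM in MSM LN cisplatin and at 17.9 CPM or less in all 21 other macrophage libraries. Cd8b1 was at 221, 198 and 209 CPM in MSM LN cisplatin and at 45.1 CPM or less elsewhere. The 3 MSM LN cisplatin libraries are those with the low macrophage marker sums. The NK cell markers summed to 742 to 798 CPM in them, against 38.7 to 313 CPM in the other macrophage libraries. Their neutrophil markers summed to 82.2 to 84.4 CPM, with Ltf, Camp, Ly6g and Retnlg at 0, and their B cell markers to 4900 to 5011 CPM. The 5 general dendritic cell markers summed to 24730 to 25880 CPM in them, against 3472 to 20130 CPM in the other macrophage libraries, the migratory dendritic cell markers to 4751 to 4985 CPM, against 537 to 2411 CPM, and the plasmacytoid ones to 1013 to 1059 CPM. The B cell sums were as high in SSM TDLN cisplatin 1 and 2, at 4917 and 4988 CPM. The plasmacytoid sums were as high there, at 1060 and 1085 CPM. The part of these cells in the Lef1 and Cd8b1 levels was not tested. Foxp3 was at 26.6, 24.8 and 31.3 CPM in SSM TDLN PBS, above all other macrophage libraries, and at 1.61 to 2.73 CPM in MSM TDLN PBS. Cd4 was high in the SSM libraries where the CD3 genes were low. It was at 285 and 278 CPM in SSM TDLN cisplatin and 321 and 288 CPM in SSM LN PBS, in the libraries that are not crossed, where Cd3e was lowest. It was at 171, 185 and 184 CPM in SSM TDLN PBS and at 119.9, 122 and 115 CPM in SSM LN cisplatin. The crossed MSM libraries had 297 CPM in TDLN cisplatin and 315 CPM in LN PBS, above the 91.0 to 221 CPM of the other MSM libraries. Among the MSM libraries that are not crossed, TDLN PBS was highest in both Cd3e and Cd4, and SSM TDLN PBS was above SSM LN cisplatin in both, so Cd4 and Cd3e did not have opposite orders throughout.

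In SSM of the TDLN, the CD3 genes, Tcf7, Il7r and Bcl11b fell with cisplatin once the crossed libraries were left out. With all 24 libraries, 0 of the 10 genes rose and 2 fell, against 23.0% of all genes called. Those were Foxp3, at -2.14 ± 0.42 (edgeR adjusted p = 0.0065), and Cd8b1, at -1.75 ± 0.43 (edgeR adjusted p = 0.016). The Cd8b1 call was lost without SSM TDLN cisplatin 1, at -1.49 (adjusted p = 0.057), and likewise at adjusted p = 0.057 without SSM TDLN cisplatin 2 and without SSM TDLN PBS 3. Cd3e had a difference of -1.56 ± 0.81 (adjusted p = 0.19), with the crossed SSM TDLN cisplatin 3 inside the cisplatin group. Without the 4 crossed libraries, 1 gene rose and 9 fell, against 71.1% of all genes called. The differences on the log2 scale were -3.24 ± 0.07 for Cd3e, -2.83 for Cd3d, -2.92 for Cd3g, -2.65 for Tcf7, -3.06 for Il7r and -2.82 for Bcl11b, each at an edgeR adjusted p of 3.0e-14 or less. They were -1.71 for Lef1, -2.16 for Foxp3 and -2.50 for Cd8b1, while Cd4 rose by 0.65 ± 0.06 (edgeR adjusted p = 8.4e-08). With only SSM TDLN cisplatin 3 left out, the Cd3e difference was -3.24 (adjusted p = 0.0037). Leaving out this library alone added the calls of the 3 CD3 genes, Tcf7, Lef1, Il7r and Bcl11b. Calls over all genes went from 3883 to 8810 in that fit.

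In SSM of the LN, the direction with cisplatin was the other way. With all libraries 0 of the 10 genes were called, against 13.3% of all genes, and Cd3e had a difference of 0.57 ± 0.80 (adjusted p = 0.69). DESeq2 called 1 of the 10, and 1 gene, Cd4, had an unadjusted p under 0.05 in edgeR. With the crossed libraries left out 7 rose and 1 fell, against 60.0% of all genes called. Cd3e rose by 1.75 ± 0.06, Cd3d by 1.83 ± 0.07, Cd3g by 1.88 ± 0.07 and Il7r by 1.35 ± 0.09, each at an edgeR adjusted p of 7.5e-10 or less. Tcf7 and Bcl11b rose by 0.84 each. Cd4 fell, at -1.33 ± 0.06 (edgeR adjusted p = 1.2e-11), and it was called at 1.9e-04 with only SSM LN PBS 2 left out. Calls over all genes went from 2240 to 4441 in that leave-out. Whether the cisplatin differences of SSM differ between the nodes was not tested.

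Between nodes, SSM with PBS had higher T cell genes in the TDLN, and SSM with cisplatin lower ones. With PBS, 1 of the 10 genes was called higher with all libraries, against 19.7% of all genes. That was Foxp3, at 1.51 ± 0.41 (adjusted p = 0.027), and its call was lost without SSM LN PBS 3 and without any single SSM TDLN PBS library, at adjusted p of 0.060 to 0.088. Leaving out the crossed libraries, 8 were higher and 1 lower, against 67.8% of all genes called. Cd3e was higher by 2.6 ± 0.07, Cd3g by 2.72 ± 0.07 and Il7r by 2.23 ± 0.09, and Cd4 had a difference of -0.73 ± 0.06, each at an edgeR adjusted p of 1.8e-08 or less. Leaving out SSM LN PBS 2 alone gave Cd3e 2.6 (adjusted p = 0.036) and added calls of Cd3d, Cd3g, Bcl11b and Cd4. Calls over all genes went from 3321 to 6471 in that leave-out. With cisplatin, 1 gene was higher and 1 lower with all libraries, against 17.4% of all genes called. Cd4 was higher, at 1.13 ± 0.34 (adjusted p = 0.043), a call lost in 5 of 6 leave-outs at adjusted p of 0.097 to 0.13, all but that of SSM TDLN cisplatin 3. Cd8b1 was lower, at -2.0 ± 0.43 (adjusted p = 0.011). In the fit without the crossed libraries 1 was higher and 9 lower, against 61.9% of all genes called. Cd3e had a difference of -2.40 ± 0.07 and Il7r of -2.19 ± 0.09, and Cd4 of 1.25 ± 0.06, each at an edgeR adjusted p of 2.2e-11 or less. Leaving out SSM TDLN cisplatin 3 alone added calls of the 3 CD3 genes, Tcf7, Lef1, Il7r and Bcl11b, with Cd3e at -2.39 (adjusted p = 0.016). Calls over all genes went from 2945 to 6289 in that leave-out. Tcf7 turned its sign with the crossed libraries, at 0.24 ± 0.73 with them and -1.58 ± 0.06 without.

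In MSM the fits leaned on Lef1, Foxp3 and Cd8b1, while the CD3 genes had differences of 0.67 or less in size without the crossed libraries. The median of all genes was not at 0 in these fits: it was 0.19 with cisplatin in the TDLN, -0.15 with cisplatin in the LN, -0.21 for TDLN over LN with PBS and 0.15 with cisplatin, on the log2 scale, and 0.14, -0.08, -0.10 and 0.10 without the crossed libraries. With cisplatin in the TDLN, 2 of the 10 genes rose and none fell with all libraries, against 37.1% of all genes called. Lef1 was at 3.60, 8.54 and 9.88 CPM in MSM TDLN cisplatin, against 2.97, 3.35 and 2.68 CPM in MSM TDLN PBS, a difference of 1.3 ± 0.31 (adjusted p = 0.0082). Foxp3 rose by 1.62 ± 0.50 (adjusted p = 0.029), and every leave-out but that of MSM TDLN cisplatin 1 took it past the threshold, to adjusted p of 0.059 to 0.11. Once the crossed libraries were left out, 5 rose and 4 fell, against 69.0% of all genes called. Cd3e had a difference of -0.61 ± 0.05 and Bcl11b of -0.92 ± 0.06, while Tcf7 rose by 0.39 ± 0.05 and Il7r by 0.31 ± 0.07, each at an edgeR adjusted p of 8.9e-04 or less. Tcf7 and Il7r, at -0.11 and -0.21 with all libraries, thus turned their sign. The CD3 chains were not equal in this comparison, since Cd3g had a difference of -0.20 ± 0.06 (edgeR adjusted p = 0.0047).

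With cisplatin in the LN, 2 of the 10 genes rose in MSM and none fell with all libraries, against 43.4% of all genes called. The MSM LN cisplatin libraries had the lowest macrophage marker sums of the macrophage libraries, and the part of this in the differences was not tested. Lef1 rose to 120.4, 132 and 127 CPM in LN cisplatin, against 16.1, 17.1 and 16.4 CPM in LN PBS, a difference of 2.93 ± 0.29 (adjusted p = 4.6e-05). Cd8b1 rose by 2.51 ± 0.46 (adjusted p = 0.0019), and the libraries of these 2 genes did not overlap. Among the 10 MSM libraries that are not crossed, 5 rose and 5 fell, against 74.0% of all genes called. Lef1 and Cd8b1 rose by 2.96 ± 0.10 and 2.24 ± 0.09, Foxp3 by 1.75 ± 0.23, and Tcf7 and Cd4 by 0.80 and 0.79. Il7r fell, at -1.53 ± 0.07 (edgeR adjusted p = 1.1e-12), as did Cd3e, at -0.46 ± 0.05 (edgeR adjusted p = 1.9e-07). Foxp3 was also called with only MSM LN PBS 2 left out, at 1.75 (adjusted p = 0.0016), where it had 0.85 (adjusted p = 0.17) with all libraries. Cd4 was called there too, at 0.79 (adjusted p = 0.0048), against -0.02 with all libraries.

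Between nodes, Lef1 and Cd8b1 were lower in the TDLN in MSM under both treatments. With PBS, 3 of the 10 genes were lower and none higher with all libraries, against 38.2% of all genes called. Lef1 had a difference of -2.47 ± 0.31 (adjusted p = 2.2e-04), Foxp3 of -1.8 ± 0.51 (adjusted p = 0.018) and Cd8b1 of -1.42 ± 0.45 (adjusted p = 0.031). The Foxp3 call was lost without MSM TDLN PBS 2 or MSM TDLN PBS 3, at 0.081 and 0.071, and the Cd8b1 call in 5 of 6 leave-outs, at adjusted p of 0.083 to 0.12, all but that of MSM LN PBS 2. Cd4 gained a call without MSM LN PBS 2, at 1.18 (adjusted p = 7.2e-04). Without the crossed libraries 6 were higher and 3 lower, against 69.7% of all genes called. Cd4 was higher by 1.18 ± 0.07 and Cd3e by 0.67 ± 0.05, and Lef1 had a difference of -2.45 ± 0.15. With cisplatin, 2 were lower with all libraries, against 43.3% of all genes called. This comparison rests on the MSM LN cisplatin libraries, whose macrophage marker sums were the lowest of the macrophage libraries. Lef1 had a difference of -4.11 ± 0.31 (adjusted p = 1.1e-05) and Cd8b1 of -3.96 ± 0.49 (adjusted p = 1.8e-04). Without the crossed libraries 6 were higher and 3 lower, against 74.4% of all genes called. Il7r was higher by 1.94 ± 0.07 (edgeR adjusted p = 3.7e-14) and was called at 0.0076 with only MSM TDLN cisplatin 1 left out. Lef1 and Cd8b1 had differences of -3.77 ± 0.11 and -3.53 ± 0.10.

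**Figure D4:**
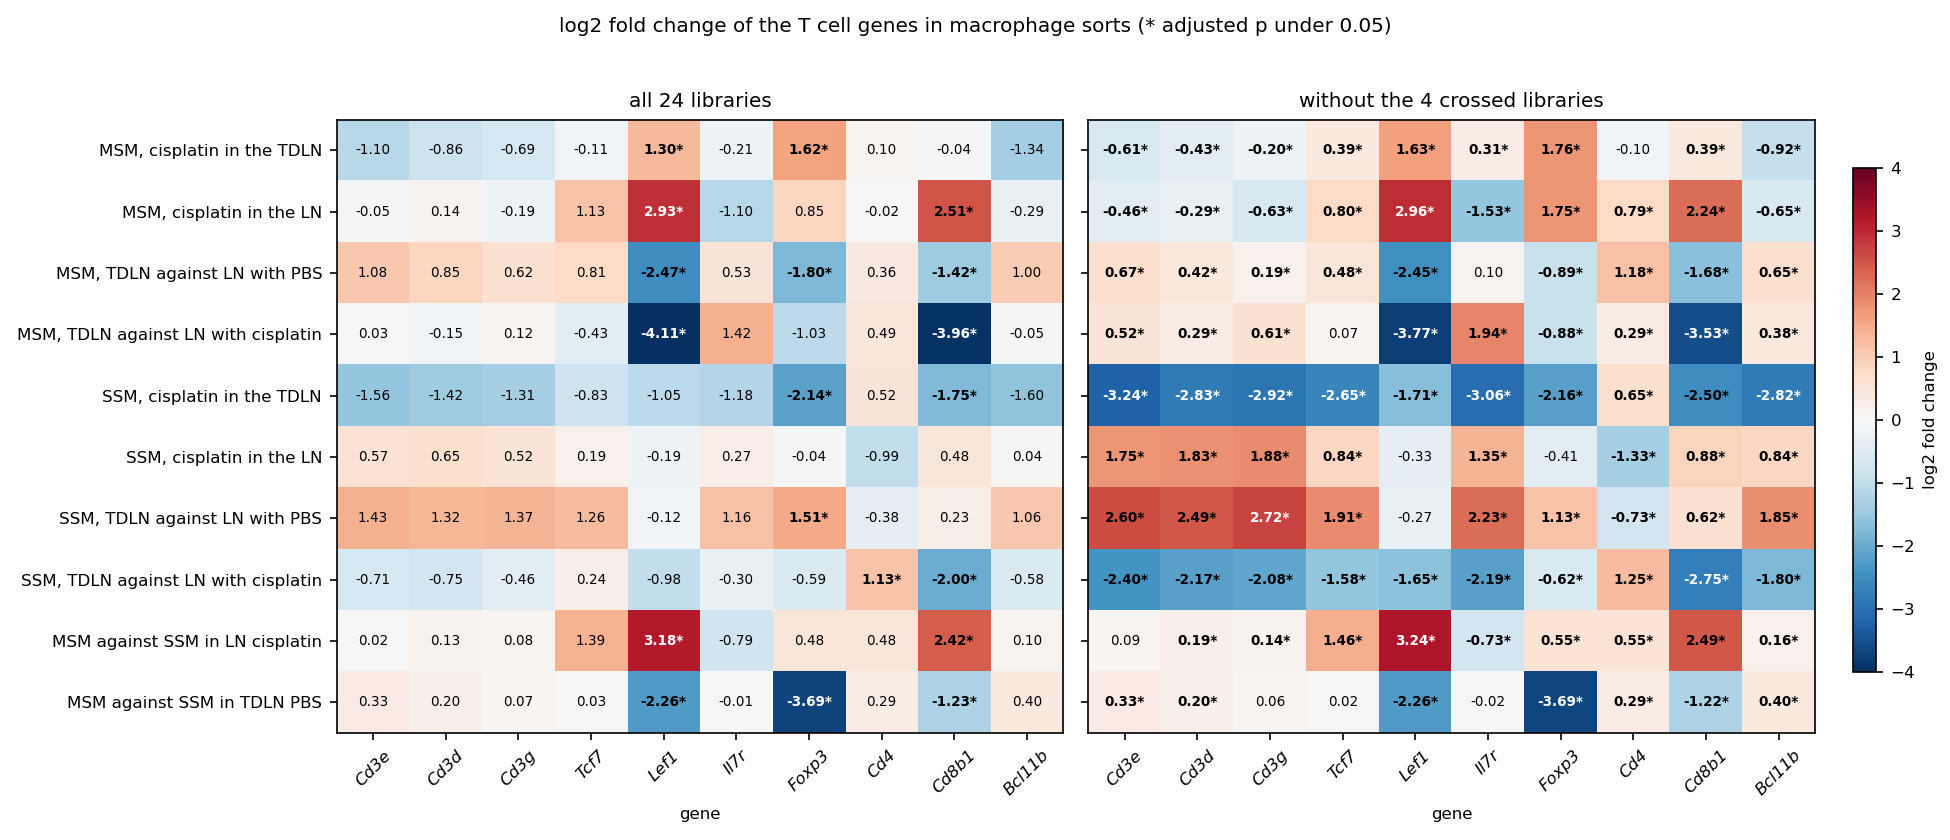
Log2 differences of the 10 genes in the 10 macrophage comparisons, from all 24 libraries and without the 4 crossed libraries; an asterisk marks an edgeR adjusted p under 0.05, and colours saturate at 4 in either direction. For SSM with cisplatin in the TDLN the values of Cd3e are -1.56 with all libraries and -3.24 without the crossed ones, and Cd4 is on the other side of 0 in the 4 SSM comparisons without them.

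MSM and SSM were compared in the 2 conditions without a crossed library. The MSM libraries of LN cisplatin are those with macrophage marker sums of 320 to 352 CPM, the lowest of the macrophage libraries. The part of this in the differences was not tested. In LN cisplatin, 2 of the 10 genes were higher in MSM and none lower with all 24 libraries in the fit, against 49.7% of all genes called. Lef1 was at 120.4, 132 and 127 CPM in MSM, against 16.3, 14.4 and 11.0 CPM in SSM, a difference of 3.18 ± 0.37 (adjusted p = 1.1e-06). Cd8b1 was at 221, 198 and 209 CPM in MSM, against 36.0, 40.7 and 40.1 CPM in SSM, a difference of 2.42 ± 0.46 (adjusted p = 2.8e-04). Cd3e was at 334, 348 and 336 CPM in MSM, against 325, 336 and 340.0 CPM in SSM, and these overlapped. In the fit without the crossed libraries, which share the estimate of spread, 8 were higher and 1 lower, against 72.4% of all genes called. Tcf7 had a difference of 1.46 ± 0.05 there and Il7r of -0.73 ± 0.08, while Cd3e had 0.09 ± 0.05 (edgeR adjusted p = 0.11). In TDLN PBS, 3 of the 10 were lower in MSM and none higher, against 40.8% of all genes called. Foxp3 was at 2.73, 1.61 and 2.01 CPM in MSM, against 26.6, 24.8 and 31.3 CPM in SSM, a difference of -3.69 ± 0.51 (adjusted p = 1.2e-05). Lef1 had a difference of -2.26 ± 0.37 (adjusted p = 9.7e-05). Cd8b1, at -1.23 ± 0.45 (adjusted p = 0.036), lost its call in each of the 6 leave-outs, at adjusted p of 0.062 to 0.11. Without the crossed libraries 4 were higher and 3 lower, against 67.1% of all genes called, and Cd3e was higher in MSM by 0.33 ± 0.05 (edgeR adjusted p = 9.8e-07).

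The other T cell genes moved with the CD3 genes in SSM without the crossed libraries. There the 20 receptor and signalling genes all fell with cisplatin in the TDLN, where 71.1% of all genes were called, with a median of -2.91 on the log2 scale against -0.02 over all genes. Of the 45 other T cell genes 3 rose and 40 fell there. Trbc2, a T cell receptor constant segment, was at 121 ± 6.82 CPM in SSM TDLN cisplatin (n = 2) and 817 ± 56.7 CPM in SSM TDLN PBS (n = 3), a difference of -2.76 ± 0.07 (edgeR adjusted p = 2.8e-15). Icos, a costimulatory receptor, was at 131 ± 1.71 CPM in SSM TDLN cisplatin and 884 ± 42.7 CPM in SSM TDLN PBS, a difference of -2.75 ± 0.06 (edgeR adjusted p = 1.1e-15). Id3, a transcriptional regulator, went the other way, with 39.5 ± 3.28 CPM in SSM TDLN cisplatin and 14.4 ± 1.54 CPM in SSM TDLN PBS, a difference of 1.45 ± 0.11 (edgeR adjusted p = 2.9e-09) that was 1.28 ± 0.23 with all libraries. In the LN 35 of the 45 rose with cisplatin and 6 fell, for TDLN over LN with PBS 40 were higher and 3 lower, and for TDLN over LN with cisplatin 5 were higher and 38 lower. The matching medians of the 45 were 1.25, 2.01 and -2.0, against 0.00, 0.01 and 0.00 over all genes. In these 4 SSM comparisons 91.1% to 95.6% of the 45 were called, where 60.0% to 71.1% of all genes were. With all libraries few were called, 1 higher and 6 lower with cisplatin in the TDLN, 1 and 3 in the LN, 3 and 1 for TDLN over LN with PBS and 3 and 2 with cisplatin. Those are 8.89% to 15.6% of the 45, below the 13.3% to 23.0% of all genes called. In MSM without the crossed libraries the 45 divided, with 16 rising and 20 falling with cisplatin in the TDLN and 23 rising and 18 falling in the LN. With all MSM libraries 8 rose and 2 fell in the TDLN and 11 rose and 1 fell in the LN. For TDLN over LN in MSM without the crossed libraries 26 were higher and 10 lower with PBS and 22 and 17 with cisplatin, and with all libraries 2 and 4 with PBS and 2 and 9 with cisplatin. In the 4 MSM comparisons 80% to 91.1% of the 45 were called without the crossed libraries, where 69.0% to 74.4% of all genes were, and 13.3% to 26.7% with all libraries, below the 37.1% to 43.4% of all genes. Between MSM and SSM 27 were higher and 13 lower in LN cisplatin and 19 and 18 in TDLN PBS without the crossed libraries, and 9 and 1 in LN cisplatin and 1 and 8 in TDLN PBS with them. The shares without them were 88.9% and 82.2%, where 72.4% and 67.1% of all genes were called, and with them 22.2% and 20%, below the 49.7% and 40.8% of all genes. Lcp2, a signalling adaptor, was at 110 ± 2.17 CPM in MSM LN cisplatin (n = 3) and 568 ± 22.0 CPM in MSM LN PBS (n = 2), a difference of -2.37 ± 0.05 (edgeR adjusted p = 2.1e-17) that was -2.15 ± 0.30 with all libraries. S1pr1, the receptor that guides lymphocyte egress, was at 582 ± 10.6 CPM in MSM LN cisplatin and 112 ± 2.59 CPM in MSM LN PBS, a difference of 2.37 ± 0.06 (edgeR adjusted p = 1.0e-16) that was 1.87 ± 0.28 with all libraries.

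Markers of other cells changed in the same SSM libraries. Without the crossed libraries, B cell markers summed to 4917 to 4988 CPM in SSM TDLN cisplatin against 1261 to 1311 CPM in SSM TDLN PBS. Of the 10, 9 rose and 1 fell, where 71.1% of all genes were called. The B cell markers summed to 446 to 455.4 CPM in SSM LN cisplatin against 3848 to 3978 CPM in SSM LN PBS. There 1 rose and 9 fell, where 60.0% of all genes were called. The B cell sums were thus high where the CD3 genes were low, as was Cd4. Innate lymphoid cell markers ran with the CD3 genes, at 262 to 275 CPM in SSM TDLN cisplatin against 1969 to 2089 CPM in SSM TDLN PBS, and at 1018 to 1096 CPM in SSM LN cisplatin against 348 to 370.5 CPM in SSM LN PBS. Macrophage markers summed to 5374 to 5516 CPM in SSM TDLN cisplatin against 1992 to 2204 CPM in SSM TDLN PBS, with Vsig4 at 0 in both. In the LN they summed to 6096 to 6195 CPM after cisplatin and 6781 to 7114 CPM after PBS. In MSM, neutrophil markers summed to 7757 to 8042 CPM in TDLN PBS, the group with the highest Cd3e. In SSM TDLN PBS, the group next in Cd3e, they summed to 276 to 308 CPM. The part of these cells in the T cell gene values was not tested.

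**Figure D5:**
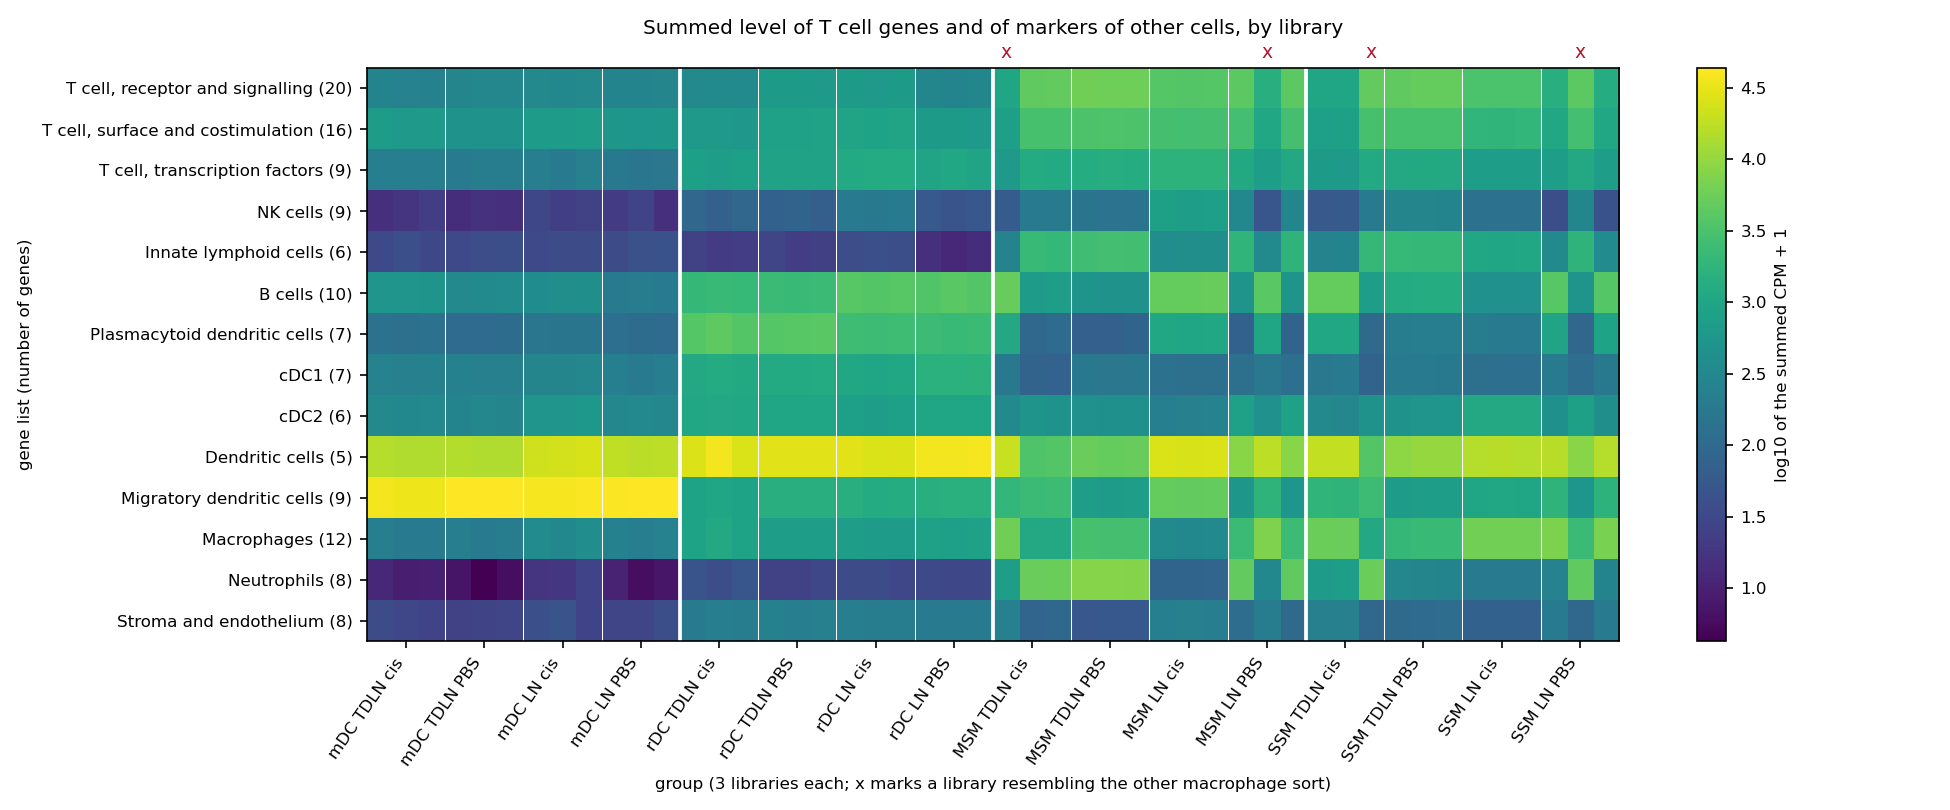
Summed CPM of T cell gene lists (without the 10 genes) and of marker lists of other cells in each of the 48 libraries, as log10 of the sum plus 1, with the 3 libraries of a group side by side; an x marks a crossed library. The crossed macrophage libraries carry the sums of the other macrophage label, for example 969 to 985 CPM of receptor and signalling genes in SSM TDLN cisplatin against 4755 CPM in its crossed library.

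Genes whose pattern was most like that of the CD3 genes were sought over the 24 libraries of each table, by Pearson correlation of log2(CPM + 1) with the mean standardised level of Cd3e, Cd3d and Cd3g. The correlations are a description, since the points share libraries and depth. Among 11686 genes of the dendritic cell table the closest included Cd6 at 0.941, Lat at 0.936, Lck at 0.928 and Ubash3a at 0.912, all on the fixed T cell lists. Of the 10 genes Lef1 was at 0.957, Bcl11b at 0.833, Foxp3 at 0.615, Cd4 at 0.585 and Cd8b1 at 0.575. Tcf7, at -0.115, and Il7r, at -0.0943, did not run with the CD3 genes across these libraries, which pool mDC and rDC. Within rDC, Tcf7 over Cd3e stayed between 0.835 and 1.31 in 11 of the 12 libraries. In the macrophage table, with 11626 genes, the closest were Zap70 at 0.991, Lat at 0.989 and Hsd11b1, Cd7 and Ccnd2 at 0.985. There Bcl11b was at 0.965, Il7r at 0.933 and Tcf7 at 0.909. Cd8b1 was at 0.397, Lef1 at 0.0822, Foxp3 at -0.107 and Cd4 at -0.591.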

How the data were processed

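RNA-seq of 48 libraries of sorted cells (polyA RNA, a stranded kit, per the labels' protocols) was deposited as 2 tables, of dendritic cells and of macrophages, on GRCm38. The submitters' processing notes name STAR, RSEM 1.3.0 and DESeq2 1.38.3, with no role or order. The authors deposited expected counts per gene, already rounded to whole numbers and used as they are, and TPM. The deposited TPM of the macrophages are whole numbers that sum to 989021 to 991933 per library, so they were treated as a score with the decimals dropped, and ratios of low genes are coarse there. The dendritic cell columns named WT were read as LN, the node label that is left for them.

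The 10 genes and all gene lists were chosen with earlier results of these data known. Differences come from edgeR 4.0.16 (R 4.3.3), quasi-likelihood F test with TMM scaling, filterByExpr and Benjamini-Hochberg adjustment over all genes tested, at a limit of 0.05. Each of the 4 sorts was fitted on its 12 libraries, and MSM against SSM on 24. SE is the log2 difference divided by the square root of F. Printed CPM are TMM-scaled over the 24 libraries of a table. Alternatives were DESeq2 1.42.0, DESeq2 size factors, no filter, the replicate block, each library left out, the 6 compared libraries alone, thinning of the deep libraries, and the 4 crossed libraries left out. Besides the 10 genes, up to 4 other T cell genes per direction that passed the limit could be named, highest mean CPM first, and the 5 genes most like the CD3 genes, of which 1 is not reported here. The scripts were tested on simulated data. Replicates were compared pairwise and none agreed within sampling noise: the chi-square per gene was 1.76 to 13.0 in 40 pairs and 122 to 178 in the 8 pairs with a crossed library.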

Additional observations from a re-analysis of the deposited data

Results flagged for a closer look

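The cisplatin difference of mDC was not the same in the 2 nodes for 2 of the 10 genes, by edgeR's test of the difference itself, in which 15.6% of all genes were called. For Tcf7 the TDLN minus LN value was 0.81 on the log2 scale (adjusted p = 4.3e-06), and for Cd4 it was -1.12 (adjusted p = 0.0025). All 3 TDLN cisplatin libraries were above the TDLN PBS libraries for Tcf7 and below them for Cd4. The Cd4 call of cisplatin in the TDLN was lost in 4 leave-outs and with the deep libraries thinned. The mDC TDLN PBS libraries were sequenced to 11424067 counts or more and the other mDC libraries to 3653407 or less.

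In rDC the cisplatin libraries lay below the PBS libraries in the TDLN and above them in the LN for 6 genes. The share of all genes that did so is not given, so this number describes the libraries and is no result about the genes. The differences of the 6 genes were not tested, and they are among the values that chose the genes. As log2 of mean CPM, TDLN minus LN, they were -4.63 for Cd3e, -5.09 for Cd3d, -4.67 for Cd3g, -3.54 for Tcf7, -2.98 for Lef1 and -3.57 for Bcl11b. The rDC LN PBS libraries were sequenced to 10733509 counts or more and the other rDC libraries to 3842097 or less, and the part of depth was not tested.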

How the results depend on the processing

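The largest changes came from the 4 crossed macrophage libraries. Without them the number of the 10 genes called was, with cisplatin in the TDLN, 9 in MSM against 2 with all libraries and 10 in SSM against 2; with cisplatin in the LN, 10 in MSM against 2 and 8 in SSM against 0. For TDLN over LN it was 9 in MSM against 3 with PBS and 9 against 2 with cisplatin, and in SSM 9 against 1 and 10 against 2. For MSM over SSM it was 9 against 2 in LN cisplatin and 7 against 3 in TDLN PBS. Over all genes the calls were 12674 against 6305, 13602 against 7376, 12812 against 6489 and 13672 against 7363 in MSM, 12540 against 3883, 10574 against 2240, 11947 against 3321 and 10923 against 2945 in SSM, and 14728 against 9783 and 13644 against 8019 for MSM over SSM.

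Signs turned without them in MSM for Tcf7 (0.39 against -0.11), Il7r (0.31 against -0.21) and Cd8b1 (0.39 against -0.04) with cisplatin in the TDLN, for Cd3d (-0.29 against 0.14) and Cd4 (0.79 against -0.02) with cisplatin in the LN, and for Cd3d (0.29 against -0.15) and Bcl11b (0.38 against -0.05) between nodes with cisplatin, and in SSM for Tcf7 (-1.58 against 0.24) between nodes with cisplatin. DESeq2 and its size factors each turned Cd3e (0.012) and Cd4 (0.056 and 0.057) in MSM with cisplatin in the LN and Cd3e (-0.049 against 0.03) between nodes with cisplatin. The 6 libraries alone turned Bcl11b in SSM with cisplatin in the LN (-0.017 against 0.04). None of these had been called, and the cause was not tested.

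Leaving out 1 library gave these lowest and highest log2 values. In MSM with cisplatin in the TDLN they were -0.46 and 0.39 for Tcf7, -0.68 and 0.31 for Il7r and -0.30 and 0.39 for Cd8b1. With cisplatin in the LN they were -0.46 and 0.26 for Cd3e, -0.29 and 0.45 for Cd3d, -0.63 and 0.11 for Cd3g and -0.32 and 0.79 for Cd4. Between nodes with cisplatin they were -0.30 and 0.52 for Cd3e, -0.56 and 0.28 for Cd3d, -0.26 and 0.61 for Cd3g and -0.37 and 0.38 for Bcl11b. In SSM with cisplatin in the LN they were -0.056 and 0.84 for Tcf7, -0.065 and 1.35 for Il7r and -0.24 and 0.84 for Bcl11b, and between nodes with cisplatin -1.57 and 0.69 for Tcf7 and -2.18 and 0.15 for Il7r. The number of the 10 genes called then ranged from 1 to 2, 0 to 2 and 0 to 2 in mDC with cisplatin in the TDLN, with cisplatin in the LN and between nodes with PBS. In MSM it was 1 to 2, 2 to 4 and 1 to 4 in the same comparisons. In SSM it was 1 to 9, 0 to 1 and 0 to 6, and 1 to 9 between nodes with cisplatin. All-gene calls in SSM ranged from 1818 to 8810, 803 to 4441, 1400 to 6471 and 1305 to 6289. Those of mDC and MSM are not given, so the ranges there are no result about the genes.

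With no filter on low counts 5 of the 10 genes were called in mDC with cisplatin in the TDLN against 2, 5 between nodes with PBS against 0 and 5 in the node difference against 2, while all-gene calls went to 9422 against 3416, 11594 against 3639 and 5357 against 1952. The scaling then put the median log2 of the genes otherwise tested at -0.29, 0.36 and -0.34 in these 3, where the filter gave -0.01, 0.01 and -0.01; in SSM with cisplatin in the LN all-gene calls were 1448 against 2240. DESeq2 called 1 of the 10 in mDC with cisplatin in the TDLN, 4 in SSM with cisplatin in the TDLN and 1 in SSM with cisplatin in the LN, where it called 3554 of all genes. Thinning left 1 call in mDC with cisplatin in the TDLN. The 6 libraries alone gave 1 call in MSM and 1 in SSM with cisplatin in the TDLN, 0 in SSM between nodes with PBS, and 9 and 7 for MSM over SSM. The other all-gene calls of DESeq2, thinning and the 6 libraries alone are not given. These counts therefore describe the settings and are no result about the genes.

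Libraries with the same replicate number were checked for correlated deviations. With 3 libraries a group, and crossed libraries in MSM and SSM, this cannot show whether they share an animal. Of 18 same-number pairs a sort, none correlated above 0.1 in mDC or rDC, 1 did in MSM and 3 in SSM. The replicate block gave 1 call in MSM with cisplatin in the TDLN against 2, 1 between nodes with PBS against 3, and in SSM 0 between nodes with PBS against 1 and 1 with cisplatin against 2. It turned Cd4 in MSM with cisplatin in the LN (0.079), Cd3e in MSM between nodes with cisplatin (-0.059) and Tcf7 in SSM between nodes with cisplatin (-0.11). All-gene calls in SSM fell to 2476, 1206, 2118 and 1851. Those of MSM are not given, so its counts are no result about the genes. Without TMM, 47 of 80 dendritic cell group means stayed within 1 SD and 33 moved. Depth limits Cd3d in mDC most, at 2 counts in its lowest library.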
